A study of Mus musculus with 4 samples.

Results

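Wnt ligands, their receptors and their antagonists were followed in RNA from bone marrow skeletal stem/progenitor cells (SSPCs) of mature and elderly mice. The genes were chosen by symbol: every Wnt and Fzd gene, Sfrp1 to Sfrp5, Dkk1 to Dkk4, Rspo1 to Rspo4, Shisa2 and Shisa3, together with Lgr4, Lgr5, Lgr6, Lrp5, Lrp6, Wif1, Sost, Sostdc1, Frzb, Znrf3, Rnf43, Axin2, Lef1, Tcf7 and Notum. They made up 58 of the 33924 gene symbols to which the deposited counts could be assigned. Of these, 50 had more than 2 counts over the 4 libraries and were tested, 5 had no count, and 3 had a count but stayed under that limit.

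Mature mice were 3-month-old and elderly mice were 24-month-old C57Bl/6 animals of the WT genotype, with 2 libraries per age, and the labels name no treatment. The study's methods describe male mice, elderly animals that were bought before that age and housed until they reached it, and cells sorted as LEPR+ and as negative for Ter119, CD31 and CD45 (Lin-). The labels do not mention this sort and give whole marrow as the starting material. The sample titles give each library a numbered mouse of its age. The methods, however, combine the RNA of 3 or 4 animals per group. Whether the 2 libraries of an age came from separate animals or pools is therefore not settled by the sources used here. An SD with n = 2 is thus the spread between libraries, which may be technical, and the p-values measure only that spread.

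Wnt proteins are secreted lipid-modified ligands that bind a Frizzled (Fzd) receptor together with the co-receptor Lrp5 or Lrp6. The occupied pair stops the destruction of beta-catenin, which then acts with Lef1 and Tcf7 on target genes, while other Wnt proteins act without beta-catenin. Secreted antagonists (the Sfrp and Dkk families, Wif1, sclerostin) hold the pathway back outside the cell, and the ligases Znrf3 and Rnf43 take Frizzled off the surface unless an R-spondin and an Lgr receptor remove them. In the skeleton the pathway is known for its part in osteoblast formation and bone mass.

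Of the 50 genes tested, 4 were higher in elderly SSPCs (Lgr5, Shisa3, Sfrp1 and Sfrp2) and 3 were lower (Wif1, Wnt4 and Fzd9) by edgeR's quasi-likelihood test at a Benjamini-Hochberg adjusted p under 0.05 over all 21340 genes tested. Of all genes tested, 2.28% were called higher, 0.45% lower and 2.73% in either direction. All 7 had a mean of at least 10 CPM (read counts relative to library size, scaled by edgeR's TMM factor), as did 20 of the 58 genes. Among all genes at that level 5.17% were called, and under it 1.53%. At an unadjusted p under 0.05 the list grew to 10 genes, with Fzd6, Shisa2 and Wnt6, beside 2399 of all 21340 genes tested.

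The sequence just upstream of the transcription start is shown for the 2 called genes with the largest rise and the 2 with the largest fall. Each line holds 250 bases of the mm9 reference, read 5′ to 3′ on the gene's own strand and ending at the base before the annotated start of the transcript with most counts. Capitals mark CTTTGA, a core of the site that Lef1 and Tcf7 are known to bind, which was searched on both strands (TCAAAG on the other).
Lgr5, chr10:115024837-115025086, minus strand: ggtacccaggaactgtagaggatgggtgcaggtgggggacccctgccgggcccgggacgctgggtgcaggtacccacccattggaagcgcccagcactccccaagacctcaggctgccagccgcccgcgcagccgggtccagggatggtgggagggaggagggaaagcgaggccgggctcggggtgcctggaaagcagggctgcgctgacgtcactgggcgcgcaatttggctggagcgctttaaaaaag
Shisa3, chr5:67998872-67999121, plus strand: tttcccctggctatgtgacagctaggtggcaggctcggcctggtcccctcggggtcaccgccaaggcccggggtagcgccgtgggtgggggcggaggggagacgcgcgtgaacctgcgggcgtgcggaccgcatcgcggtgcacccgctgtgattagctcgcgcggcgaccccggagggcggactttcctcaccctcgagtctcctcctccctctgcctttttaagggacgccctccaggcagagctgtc
Wif1, chr10:120470766-120471015, plus strand: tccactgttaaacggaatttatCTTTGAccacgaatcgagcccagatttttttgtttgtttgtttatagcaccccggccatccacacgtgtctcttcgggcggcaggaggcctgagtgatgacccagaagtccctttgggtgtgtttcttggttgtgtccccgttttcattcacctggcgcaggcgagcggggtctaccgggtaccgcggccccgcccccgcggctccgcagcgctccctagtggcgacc
Wnt4, chr4:136833154-136833403, plus strand: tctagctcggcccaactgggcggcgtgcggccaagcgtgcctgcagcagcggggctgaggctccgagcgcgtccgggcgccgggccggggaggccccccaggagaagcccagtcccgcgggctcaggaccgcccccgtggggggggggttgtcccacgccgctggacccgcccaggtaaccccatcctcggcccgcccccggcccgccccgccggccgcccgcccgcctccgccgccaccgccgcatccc

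Of these sequences, Wif1 alone held CTTTGA, with its first base at position -228 counted from the start, and the other 3 held none in this window. Over the 50 genes tested, 5 held it (Dkk4, Fzd1, Wif1, Wnt11 and Wnt8a), against 11.6% of the 15839 promoters of the same length of protein-coding genes tested. The longer form CTTTGAT, which contains CTTTGA and so overlaps it, was present in 3 of them (Dkk4, Wnt11 and Wnt8a) and in 2.32% of those promoters. For Lgr4, Lef1 and Tcf7 the window lay wholly inside the gene. It preceded a transcript without a coding frame (Lgr4), with a retained intron (Lef1) or with a coding frame (Tcf7). For Lrp6, Wnt11 and Wnt16 the window lay partly inside the gene. A match of letters is given as a description of the sequence and was not tested as a binding site.

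**Figure D1:**
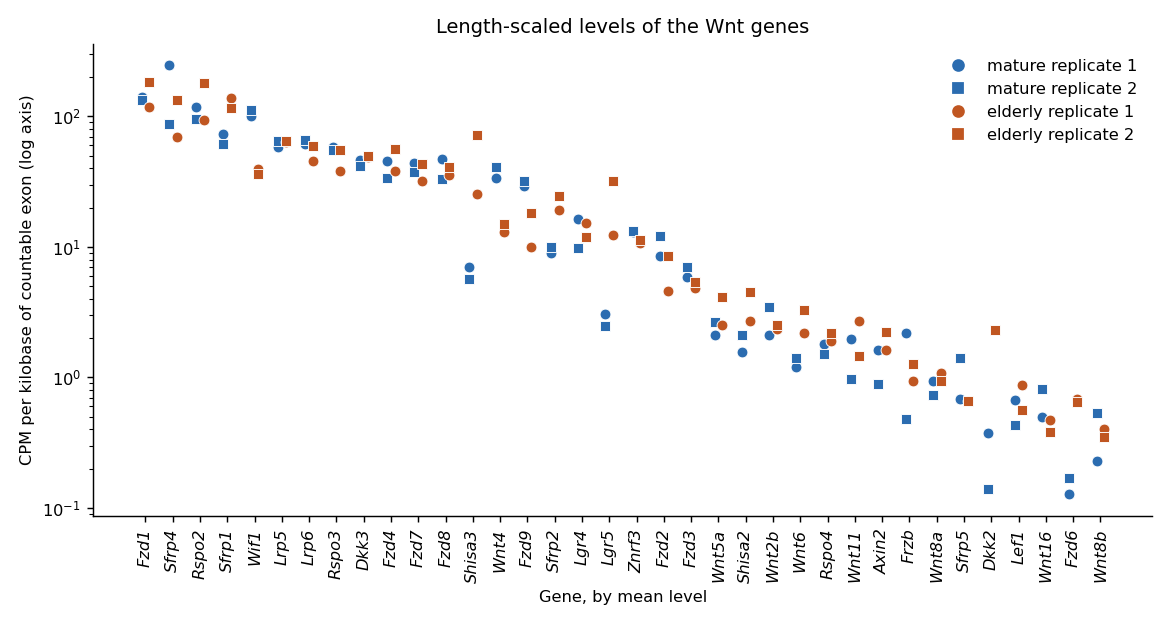
Level of each Wnt gene with a mean of at least 1 CPM and at least 500 countable bases, as CPM per kilobase of countable exon on a log axis, with genes in order of the mean over 4 libraries. Blue marks mature and orange elderly libraries, circles replicate 1 and squares replicate 2; Fzd1 stood first at 144 and Dkk2 in elderly replicate 1, with no count, is not drawn.

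Levels of different genes were compared per kilobase of countable exon, that is, of exon that belongs to a single transcript, since the counting left out bases that transcripts share. Of the 58 genes, 53 had at least 500 such bases. Among these the receptor Fzd1 stood first, at 139.9, 134, 117 and 184 CPM per kb in mature replicates 1 and 2 and elderly replicates 1 and 2. Its libraries overlapped between the ages.

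The antagonist Sfrp4 came next with 246, 87.8, 69.3 and 133 CPM per kb in the same order of libraries, followed by the R-spondin Rspo2 with 118, 95.4, 94.6 and 181 CPM per kb. The ranges of Fzd1, Sfrp4 and Rspo2 overlapped, so their order did not exceed the spread between libraries. Sfrp1 (mean 96.9 CPM per kb), Wif1 (72.0), Lrp5 (63.0), Lrp6 (58.2) and Rspo3 (51.6) followed. The most abundant ligand, Wnt4, ranked 14th at a mean of 25.6 CPM per kb, below the receptors Fzd1, Fzd4, Fzd7 and Fzd8 and both co-receptors.

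Most ligands were scarce. Of 19 Wnt genes, Wnt4 alone had a mean of at least 10 CPM, 8 had a mean of at least 1 CPM, and 14 were tested. Wnt4, which acts in kidney and gonad development and is also produced in bone, was counted at 141 and 172 CPM in mature and at 54.4 and 63.0 CPM in elderly libraries. All mature values lay above all elderly values. The means were 156 ± 22.3 CPM (SD, n = 2) and 58.7 ± 6.12 CPM (SD, n = 2), and Wnt4 fell by 1.41 on the log2 scale (SE 0.21, 95% interval -1.87 to -0.96, edgeR quasi-likelihood adjusted p = 0.0030). The gene lies at chr4:136833404-136855641 on the plus strand of mm9, and its single annotated transcript carried all of its counts.

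Wnt5a, a ligand best known for signalling without beta-catenin, was counted at 7.23, 9.09, 8.71 and 14.2 CPM in mature replicates 1 and 2 and elderly replicates 1 and 2, and did not separate by age (log2 fold change 0.49, SE 0.33, adjusted p = 0.667). Wnt2b, a ligand of the beta-catenin arm, gave 7.49, 12.4, 8.35 and 8.97 CPM and likewise overlapped (log2 fold change -0.20, adjusted p = 0.913). Wnt6 was at 2.50 and 2.92 CPM in mature and 4.49 and 6.73 CPM in elderly libraries. These did not overlap, but its log2 fold change of 1.06 (SE 0.40) did not pass the test over all genes (adjusted p = 0.287).

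The other ligands with a mean over 1 CPM, Wnt8a, Wnt8b, Wnt11 and Wnt16, had between 9 and 51 counts per library and log2 fold changes between -0.63 and 0.48, none of which passed. Wnt3, with 4 and 7 counts in mature and 14 and 16 in elderly libraries, did not pass either (adjusted p = 0.648). Wnt3a, Wnt5b, Wnt9b, Wnt10a and Wnt10b never exceeded 14 counts in a library. Wnt10b, a ligand known to promote bone formation, had no count in mature libraries and 2 and 7 in elderly ones. Wnt9b showed the reverse, with 4 and 2 counts in mature and none in elderly libraries, and at these counts a difference was not detectable for either gene. Wnt1 and Wnt7b had 1 count each, both in elderly replicate 1, and Wnt2, Wnt7a and Wnt9a had none. A count of 0 allowed up to 3 counts, or between 0.198 and 0.270 CPM depending on the library. The reading of 0 says little for Wnt9a, which had 20 countable bases.

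Among the 12 receptors and co-receptors, 11 were tested, and Fzd9 was called. Fzd9, whose loss in mice is known to reduce bone formation, was counted at 67.0 and 73.8 CPM in mature and at 22.9 and 42.0 CPM in elderly libraries. The mature values lay above the elderly ones, and elderly replicate 1 was the lower of its pair. The means were 70.4 ± 4.86 CPM (SD, n = 2) and 32.4 ± 13.5 CPM (SD, n = 2), a fall of 1.11 on the log2 scale (SE 0.27, 95% interval -1.70 to -0.53) with an adjusted p of 0.0480 by edgeR's quasi-likelihood test. This was the call nearest the threshold, and adding the counts by gene ID in place of gene symbol gave an adjusted p of 0.0507. Fzd9 has 1 transcript, at chr5:135724808-135727100 on the minus strand of mm9.

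Fzd6, a Frizzled known from planar polarity of hair and skin, was rare but apart between the ages. It had 6 and 8 counts in mature and 31 and 40 counts in elderly libraries, or 0.516, 0.686, 2.78 and 2.64 CPM. The elderly mean was 4.51 times the mature one, and the log2 fold change of 2.15 (SE 0.60, 95% interval 0.86 to 3.45) had an adjusted p of 0.0905, short of the threshold. It was called without a filter (0.0320), in the robust fit (0.0470) and with a replicate block (0.0296).

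Fzd1, the most abundant receptor, was counted at 612, 588, 512 and 805 CPM, with elderly libraries on either side of the mature ones (log2 fold change 0.13, 95% interval -0.36 to 0.63, adjusted p = 0.918). Without elderly replicate 2 its value was -0.23. Lrp5, a co-receptor whose loss causes low bone mass, was close to level at 302, 335, 328 and 338 CPM (log2 fold change 0.06, 95% interval -0.35 to 0.48, adjusted p = 0.954). Lrp6, the other co-receptor, was at 416 and 452 CPM in mature and 312 and 405 CPM in elderly libraries. These did not overlap, yet the difference of -0.28 did not pass (adjusted p = 0.691).

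The remaining Frizzled genes did not pass and had log2 fold changes from -0.64 (Fzd2, adjusted p = 0.465) to 0.26 (Fzd4, adjusted p = 0.764). Fzd5, a receptor studied mostly in the gut and eye, gave 7.23, 9.78, 6.20 and 12.1 CPM (log2 fold change 0.12, adjusted p = 0.954), and these rested on 107 countable bases, 1.55% of its longest transcript. Fzd10 had no count.

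**Figure D2:**
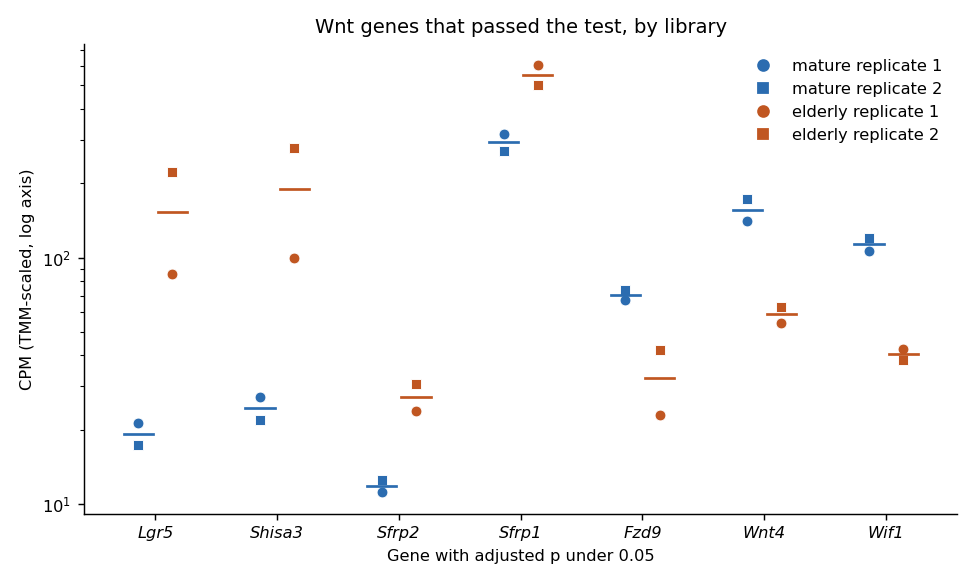
CPM per library of the 7 Wnt genes with an adjusted p under 0.05, on a log axis, with genes in order of log2 fold change. Blue marks mature and orange elderly libraries, circles replicate 1 and squares replicate 2, and bars are means of 2 libraries; the ages do not overlap for any of the 7, and Lgr5 and Shisa3 have the widest gap between elderly libraries.

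The secreted antagonists moved in both directions. Of 13 genes, 12 were tested, 2 were called higher (Sfrp1 and Sfrp2) and 1 lower (Wif1). Wif1 (Wnt inhibitory factor), which binds Wnt proteins directly, was counted at 107 and 119.8 CPM in mature and at 42.3 and 38.4 CPM in elderly libraries. The libraries of an age lay close together and the ages were far apart. The means were 113 ± 9.30 CPM (SD, n = 2) and 40.4 ± 2.77 CPM (SD, n = 2), so Wif1 fell by 1.49 on the log2 scale (SE 0.21, 95% interval -1.94 to -1.04, edgeR quasi-likelihood adjusted p = 0.00205). It lies at chr10:120471016-120537706 on the plus strand of mm9, and 99.5% of its counts fell on its protein-coding transcript. That transcript also held 934 of the 1067 countable bases of the gene.

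Sfrp1, a soluble Frizzled-like decoy whose loss is known to raise trabecular bone in mice, was the most abundant of the called genes. It was counted at 318 and 269.8 CPM in mature and at 604 and 503 CPM in elderly libraries. The elderly values all exceeded the mature ones. The means were 294 ± 34.1 CPM (SD, n = 2) and 554 ± 70.9 CPM (SD, n = 2), a rise of 0.91 on the log2 scale (SE 0.20, 95% interval 0.47 to 1.35, adjusted p = 0.0299 by edgeR's quasi-likelihood test). Sfrp1 has 1 transcript, at chr8:24521974-24560104 on the plus strand of mm9.

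Sfrp2, a relative of Sfrp1, was scarcer. It was counted at 11.1 and 12.5 CPM in mature and 23.9 and 30.5 CPM in elderly libraries, again without overlap. The means were 11.8 ± 1.00 CPM (SD, n = 2) and 27.2 ± 4.66 CPM (SD, n = 2), a rise of 1.20 on the log2 scale (SE 0.27, 95% interval 0.63 to 1.78, adjusted p = 0.0297 by edgeR's quasi-likelihood test). Its protein-coding transcript, at chr3:83570243-83578238 on the plus strand of mm9, carried 98.9% of its counts. That transcript also held 1096 of the 1246 countable bases of the gene.

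Sfrp4, known for its part in cortical bone thickness, was abundant and unsteady, with 564, 201, 159 and 304 CPM. Mature replicate 1 stood above the other 3 libraries, the ages overlapped, and the log2 fold change of -0.72 (SE 0.39) did not pass (adjusted p = 0.554). Without mature replicate 1 the value was 0.20, and without mature replicate 2 it was -1.32 with an adjusted p of 0.0198, so its direction rested on that library.

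Dkk3, a divergent member of the Dickkopf family, was nearly level at 156, 139.96, 163 and 167 CPM (log2 fold change 0.16, adjusted p = 0.860). Dkk2, an antagonist that binds the Lrp co-receptors, had 16, 6, 0 and 129 counts. Its counts came mostly from elderly replicate 2, and its log2 fold change of 2.19 (95% interval -0.28 to 4.65) did not pass (adjusted p = 0.531). Frzb had 63, 14, 26 and 48 counts and Sfrp5 had 15, 31, 14 and 19, and neither passed.

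The antagonists typical of osteocytes and embryonic tissue were at the limit of detection. Sost, which encodes the osteocyte product sclerostin, had 4, 3, 6 and 2 counts. Dkk1, Dkk4 and Sostdc1 had at most 8 counts in any library, and Notum, a secreted enzyme that strips the lipid from Wnt proteins, had 1 count in all over 100 countable bases. No age difference was detectable for these genes at this depth.

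Among the called genes the largest log2 fold changes were those of Lgr5 and Shisa3. Lgr5, an R-spondin receptor and a well known stem cell marker of the intestine and hair follicle, had 247 and 201 counts in mature and 951 and 3363 counts in elderly libraries, or 21.3, 17.2, 85.4 and 222 CPM. Each elderly value was above both mature values, and elderly replicate 2 was 2.60 times elderly replicate 1. The means were 19.2 ± 2.84 CPM (SD, n = 2) and 154 ± 96.5 CPM (SD, n = 2), a rise of 3.00 on the log2 scale (SE 0.37, 95% interval 2.20 to 3.79, edgeR quasi-likelihood adjusted p = 0.0011).

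Lgr5 lies at chr10:114887367-115024836 on the minus strand of mm9, and the difference was seen in more than 1 of its transcripts. The full-length protein-coding transcript held 80.0% of the gene's counts, with 194, 172, 689 and 2753, and rose by 3.01 (adjusted p = 3.9e-05 over all transcripts tested). Other protein-coding transcripts of the gene had no countable base, so no count could fall on them. A transcript with a retained intron had 50, 23, 240 and 499 counts and rose by 3.17 (adjusted p = 3.6e-05). A second one of that kind had 0, 4, 15 and 75 counts and rose by 4.19 (adjusted p = 0.0077).

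Lgr4, a related receptor with broader expression, was not called. It was counted at 14.5, 8.83, 13.7 and 10.6 CPM and its libraries were interleaved (log2 fold change 0.05, 95% interval -0.64 to 0.74, adjusted p = 0.978). Most of its counts came from transcripts with a retained intron or without a coding frame, since its protein-coding transcript had 72 countable bases. Lgr6 had no count.

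Shisa3 encodes a membrane protein of a family known to hold immature Frizzled and FGF receptors inside the cell. It had 315 and 256 counts in mature and 1113 and 4223 counts in elderly libraries, or 27.1, 22.0, 99.99 and 279 CPM. The pattern over libraries was like that of Lgr5: the ages were apart, and elderly replicate 2 was 2.79 times elderly replicate 1. The means were 24.5 ± 3.65 CPM (SD, n = 2) and 189 ± 126 CPM (SD, n = 2), a rise of 2.95 on the log2 scale (SE 0.38, 95% interval 2.13 to 3.77, edgeR quasi-likelihood adjusted p = 0.0015). The gene lies at chr5:67999122-68014791 on the plus strand of mm9, and its protein-coding transcript, which ends at base 68005231, held 98.8% of the counts. That transcript also held 3043 of the 3899 countable bases of the gene.

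Shisa2, from the same family, was counted at 4.91 and 6.69 CPM in mature and 8.53 and 14.2 CPM in elderly libraries. The ages were apart, but its log2 fold change of 0.97 (SE 0.35, 95% interval 0.22 to 1.73) did not pass over all genes (adjusted p = 0.239). Whether Shisa2 and Shisa3 differed in their change was not tested.

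For Lgr5 and Shisa3 the outcome depended on how the spread between the elderly libraries was handled. In edgeR's robust quasi-likelihood fit, which lets single genes keep a wide spread, the adjusted p was 0.179 for Lgr5 and 0.326 for Shisa3. Without elderly replicate 2 their log2 fold changes were 2.15 and 2.03, and without elderly replicate 1 they were 3.51 and 3.49. In all 4 fits with a library left out the sign was the same as with all libraries.

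The R-spondins, which amplify Wnt signalling through the Lgr receptors, gave no call by edgeR or DESeq2 and no unadjusted p under 0.05, and Rspo2, Rspo3 and Rspo4 were present at both ages. Rspo2 was counted at 392, 317, 315 and 602 CPM, with elderly replicate 2 the highest library (log2 fold change 0.37, 95% interval -0.21 to 0.96, adjusted p = 0.690). Without that library it was -0.17. Rspo3, at 139, 132, 91.2 and 132 CPM, had elderly replicate 1 as its lowest library (log2 fold change -0.28, 95% interval -0.75 to 0.19, adjusted p = 0.709). Rspo4 was scarce, at 4.30, 3.60, 4.49 and 5.21 CPM (log2 fold change 0.30, adjusted p = 0.868), and Rspo1 had 6 counts, all in mature replicate 1.

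The ligase Znrf3 was at 34.3 and 34.8 CPM in mature and 28.1 and 29.8 CPM in elderly libraries. These did not overlap, but the log2 fold change of -0.25 (95% interval -0.75 to 0.24) did not pass (adjusted p = 0.755). Rnf43, the related ligase, had 6, 2, 11 and 3 counts, too few for a difference to be detectable.

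Axin2, a target of beta-catenin that feeds back on the pathway and is often read as its reporter, was at 2.67, 1.46, 2.70 and 3.69 CPM. The elderly values were above the mature ones, but by a margin as small as that between 2.67 and 2.70 CPM, and the log2 fold change of 0.63 (SE 0.49, 95% interval -0.43 to 1.70) did not pass (adjusted p = 0.706). Tcf7, at 5.59, 6.60, 10.1 and 5.21 CPM, did not separate by age (log2 fold change 0.31, adjusted p = 0.854). Lef1, at 3.44, 2.23, 4.49 and 2.90 CPM, also overlapped (0.37, adjusted p = 0.859), and all of its counts fell on transcripts with a retained intron, since no protein-coding transcript of the gene had countable bases. Tcf7 and Lef1 are the nuclear partners of beta-catenin, and neither these genes nor Axin2 reached a mean of 10 CPM.

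**Figure D3:**
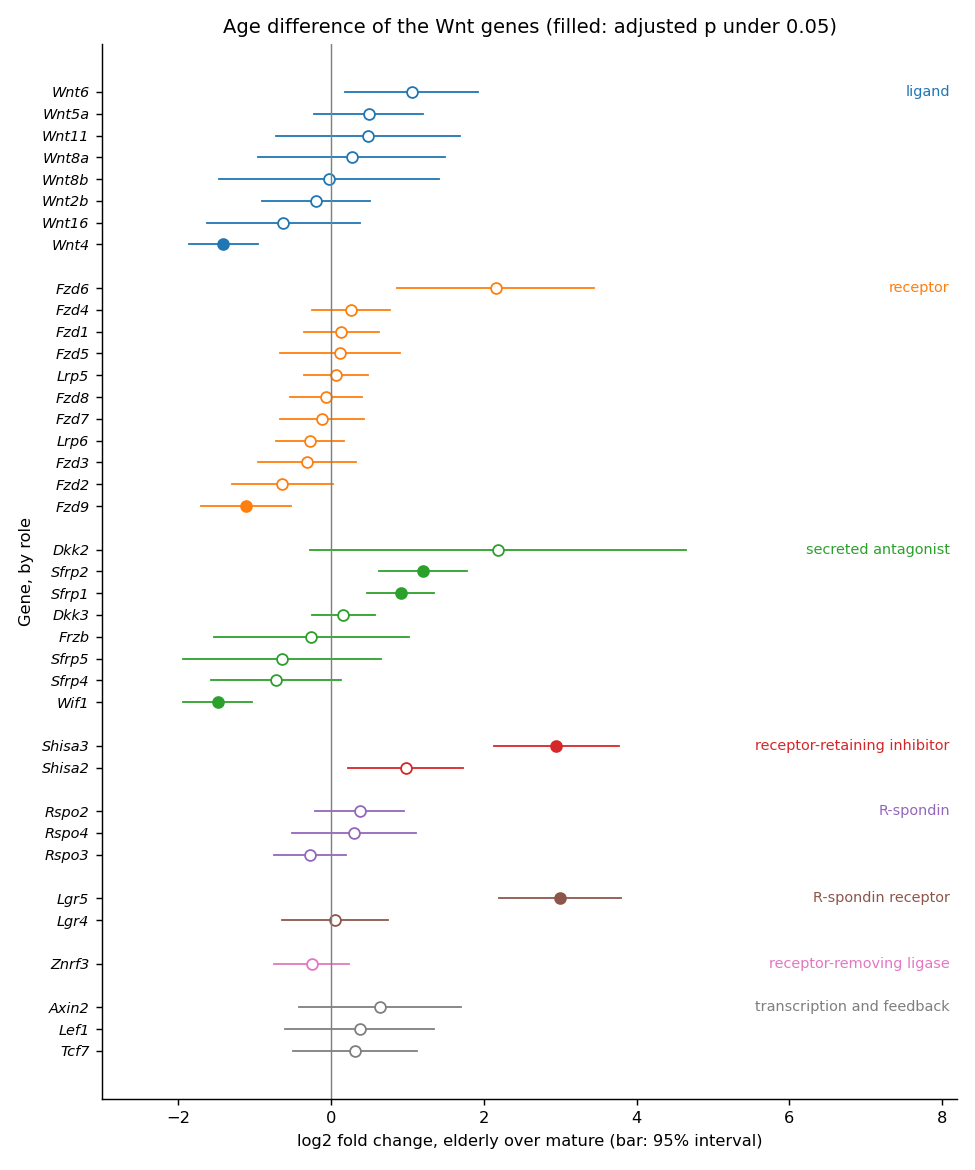
Log2 fold change, elderly over mature, of each tested Wnt gene with a mean of at least 1 CPM, grouped and coloured by role, with its 95% interval as a bar. Filled circles have an adjusted p under 0.05; they lie on both sides of 0 among the secreted antagonists, and Lgr5 and Shisa3 have the highest values; the widest interval, that of Dkk2, reaches farther right and includes 0.

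Over the 50 genes tested, 31 had a log2 fold change above 0 and 19 below, with a median of 0.16 against 0.02 over all genes tested. With genes at 3 counts or fewer in each library of an age set at their limit, the median was 0.15 over 49 genes. In 14 genes both elderly libraries were above both mature ones and in 9 both were below, which are shares to be read against 22.9% and 18.1% of all genes. For genes with a mean of at least 10 CPM the median absolute log2 fold change was 0.33 among the Wnt genes and 0.21 among all genes.

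**Figure D4:**
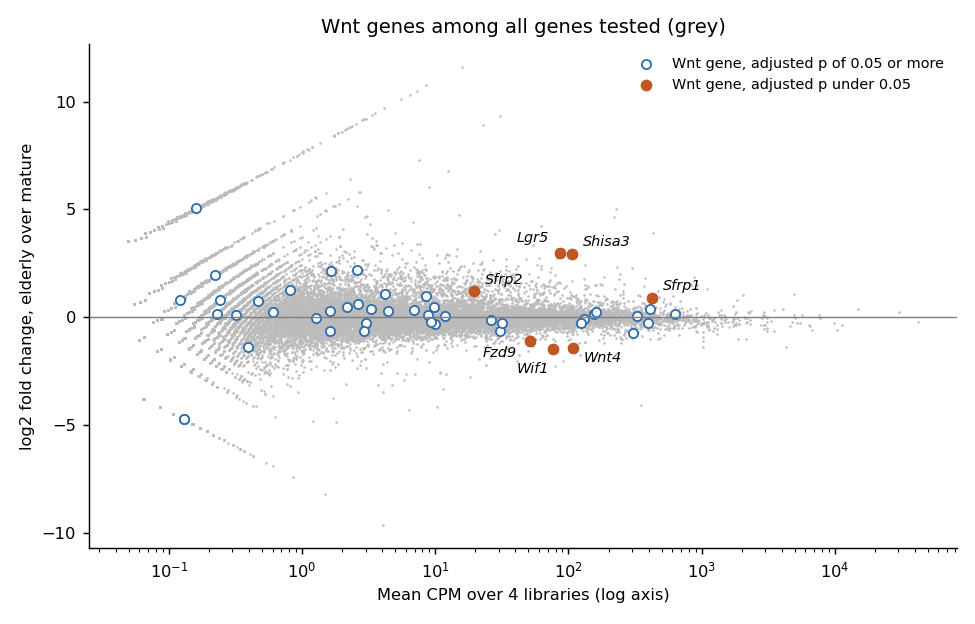
Log2 fold change, elderly over mature, against mean CPM over the 4 libraries on a log axis for all 21340 genes tested (grey) and for the 50 Wnt genes tested (circles). Filled orange circles are the 7 Wnt genes with an adjusted p under 0.05, all at means above 10 CPM, with Lgr5 and Shisa3 near 3 on the vertical axis.

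Other genes of the pathway were taken from 5 lists that held 100 genes, of which 93 were tested. Of these, 2 were called higher and 4 lower, against 2.28% and 0.45% of all genes tested, and the median log2 fold change was -0.14. Both libraries of elderly mice were above both of mature mice for 15 of the 93 genes and below for 30. Over all genes tested these shares were 22.9% and 18.1%. By edgeR the feedback inhibitors (10 tested) and the beta-catenin-independent arm (23 tested) gave 0 calls, with 3 genes each at an unadjusted p under 0.05, where DESeq2 called 2 and 0 of them. The beta-catenin core gave 2 lower of 33, secretion and co-receptors 1 lower of 13, and target genes 2 higher and 1 lower of 14.

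The target genes called higher were Ccnd1 and Tnfrsf11b. Ccnd1, cyclin D1 of the cell cycle, was at 7.23, 9.43, 25.5 and 25.5 CPM, a rise of 1.61 (SE 0.28, edgeR quasi-likelihood adjusted p = 0.0075). Tnfrsf11b, which encodes osteoprotegerin, the decoy receptor that restrains osteoclast formation, was at 4.48, 6.00, 24.6 and 12.1 CPM, a rise of 1.80 (SE 0.37, adjusted p = 0.0203). Wisp2, a matricellular protein gene and the third target called, fell by 0.82 (SE 0.19, adjusted p = 0.0369), from 853 and 886 CPM to 487 and 495 CPM. The ages did not overlap for any of these genes. Without elderly replicate 1 the value of Tnfrsf11b was 1.19 (adjusted p = 0.369).

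The core genes called lower were Tle1 and Tle2, co-repressors that bind Tcf7 and Lef1 in the absence of beta-catenin. Tle1 was at 60.1, 40.1, 21.3 and 16.4 CPM and fell by 1.41 (SE 0.27, adjusted p = 0.0135). Tle2 was at 81.7, 121, 52.3 and 48.8 CPM and fell by 1.01 (SE 0.23, adjusted p = 0.0357). Gpc3, a glypican that can bind Wnt proteins at the surface, fell by 3.12 (SE 0.70, adjusted p = 0.0318), from 4.65 and 3.09 CPM to 0.0898 and 0.726 CPM, and elderly replicate 1 held a single count. Its log2 fold change was -2.42 when elderly replicate 1 was left out and -5.27 when elderly replicate 2 was.

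Central genes of the pathway were also read. Ctnnb1, the gene of beta-catenin, was at 60.4, 62.3, 68.2 and 46.7 CPM (log2 fold change -0.10, adjusted p = 0.940), and Gsk3b, a kinase that marks beta-catenin for destruction, was at 325, 401, 336 and 405 CPM (0.03, adjusted p = 0.982). Wls, the carrier that brings Wnt proteins to the surface, was at 656, 595, 459 and 604 CPM (-0.24, adjusted p = 0.749). None of these passed. These 3 genes were picked as examples after their values were seen. The 6 list genes with no count (Lypd6, Cthrc1, Gsk3a, Btrc, Ascl2 and Mmp7) had at most 340 countable bases.

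The libraries held between 10472117 and 15650518 counts. Markers of LEPR+ stromal cells were abundant at both ages, with a summed level of 36820 and 36990 CPM in mature and 22890 and 32310 CPM in elderly libraries, and edgeR and DESeq2 called 0 of 12, Lepr and Cxcl12 among them, with 2 at an unadjusted p under 0.05. Their median log2 fold change was -0.39. In 7 of the 12 both elderly libraries were below both mature ones, against 18.1% of all genes, and in 0 above, against 22.9%. Blood cell markers were present despite the gate against CD45 and Ter119. Neutrophil markers summed to 2110 and 1205 CPM in mature and 4528 and 4474 CPM in elderly libraries (7 higher of 9 tested), and erythroid markers to 212.5, 77.7, 620.1 and 739.5 CPM (5 higher of 7). Macrophage markers summed to between 26.7 and 28.2 CPM in mature and to 48.8 and 85.3 CPM in elderly libraries (3 higher of 8), T cell markers to 8.52, 15.4, 47.2 and 30.9 CPM (2 higher of 11), and plasma cell markers to between 124.5 and 172.5 CPM (2 higher of 6). B lineage markers summed to 773 and 681 CPM in mature and 527 and 610.3 CPM in elderly libraries (1 higher of 10). That sum did not follow most of its genes. Both elderly libraries were above both mature ones for 7 of the 10 and below for 1, with a median log2 fold change of 1.13. Endothelial markers summed to 31.8, 39.5, 48.7 and 47.2 CPM (1 higher of 8), and smooth muscle and pericyte markers to 2823, 3009, 2415 and 3838 CPM (1 higher of 6). Megakaryocyte markers summed to 13.5, 225, 92.3 and 169 CPM, with 0 calls and 0 unadjusted p under 0.05 of 5 tested. Cd79b, Tek and Myh11, which help define these types, were at 0 in every library, but they had 236, 58 and 39 countable bases, so a reading of 0 says little for them.

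Markers of other skeletal cells differed between the ages as well. Osteoblast and osteocyte markers summed to 7083 and 6447 CPM in mature and 2286 and 4254 CPM in elderly libraries, most of it Ibsp, with 2 higher and 1 lower of 12 tested and with Bglap at or below 0.429 CPM. Fibroblast and tendon markers summed to 52.0 and 48.6 CPM in mature and 73.1 and 79.2 CPM in elderly libraries (1 higher of 9), and S100a4 and Thbs4 were at 0 in mature libraries. Chondrocyte markers summed to 26.7 and 39.7 CPM in mature and 16.7 and 8.84 CPM in elderly libraries (1 higher and 2 lower of 7), with Col9a1 (1322 countable bases) and Comp (14) at 0 in every library. The part of these cell types in the differences of the 7 called genes was not tested, and in bulk RNA fewer cells of a type and less RNA per cell cannot be told apart.

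**Figure D5:**
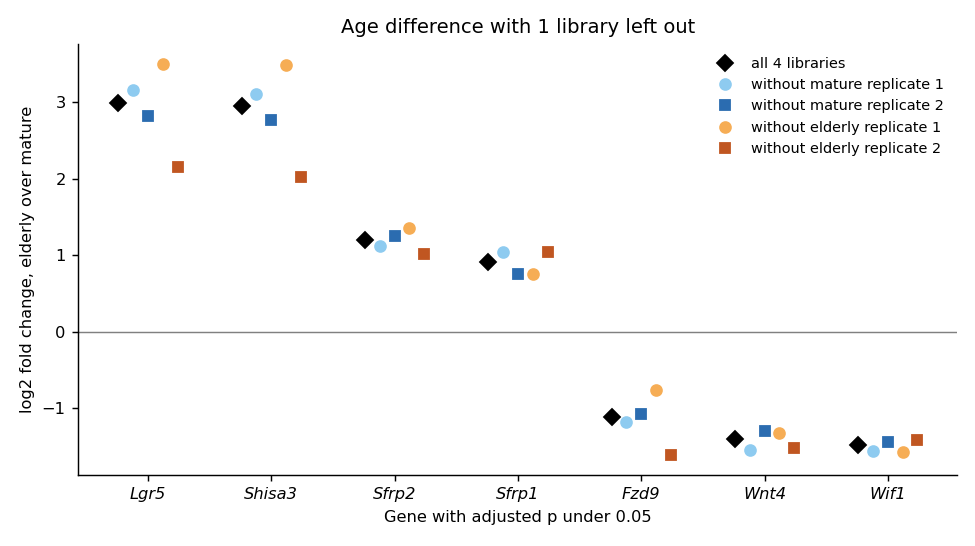
Log2 fold change, elderly over mature, of the 7 called Wnt genes with all 4 libraries (black) and with each library left out in turn (circles replicate 1, squares replicate 2; blue mature, orange elderly). No gene changed sign; Lgr5 and Shisa3 ranged from about 2 without elderly replicate 2 to 3.51 and 3.49 without elderly replicate 1.

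With each library left out in turn, the called genes kept their sign, and the value of Wif1 stayed between -1.58 and -1.42, of Wnt4 between -1.55 and -1.30, of Sfrp1 between 0.76 and 1.04, of Sfrp2 between 1.02 and 1.35, and of Fzd9 between -1.62 and -0.76. In each of these fits 1 age had a single library, which was assumed to vary like the other age, so the spread came from the pair that was left and a lost call does not show a smaller difference. Without mature replicate 1, Sfrp1 and Sfrp2 were not called (adjusted p = 0.124 and 0.0676), and without mature replicate 2, Sfrp1, Sfrp2 and Fzd9 were not (0.476, 0.0529 and 0.0501). Without elderly replicate 1, Lgr5 and Shisa3 were called and the other 5 were not, with 36 genes higher and 4 lower in all. Without elderly replicate 2, edgeR called none of the 20580 genes then tested (1637 genes, 11 of them Wnt genes, had an unadjusted p under 0.05), and each of the 7 had an adjusted p of 0.601. With 2 libraries per age, an exact permutation test of a single gene could not give a two-sided p below 0.333.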

How the data were processed

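RNA-seq counts were analysed for 2 mature and 2 elderly libraries, grouped by the age in the sample labels. The deposited values are whole-number read counts per Ensembl transcript, not normalized. For these, the authors ran CutAdapt, HISAT2 (against mm9, which is NCBI Build 37) and featureCounts within Galaxy, and the strand setting is not given in the sources used here. Bases shared by exons of several transcripts, on either strand, gave no counts: all 25621 transcripts without a base of their own were at 0. Such a base is called countable here. Library preparation used a directional kit, after poly(A) selection for most samples. The methods except some samples, processed as total RNA, and name one of them by an age in weeks. Whether that name covers mature libraries used here is not given, and an effect of preparation was not tested.

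Transcript counts were summed per GENCODE M1 gene symbol (33924 symbols), and 388 transcripts outside that annotation (0.0785% to 0.0888% of counts) were left out. The count tables held 0 columns of other samples. Genes with more than 2 counts in all (21340) were scaled by TMM (factors 0.969 to 1.064) and the ages compared with edgeR 4.0.16 in R 4.3.3 by the quasi-likelihood test (two-sided, trended dispersion, all 4 libraries, no covariate) with Benjamini-Hochberg adjustment over all genes, where the study used edgeR's exact test at a dispersion of 0.2. A gene was called at an adjusted p under 0.05, without a limit on the fold. Log2 fold changes use a prior count of 0.125, and 95% intervals come from the same fit. Transcripts were fitted likewise.

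The genes and lists were chosen with earlier results of these data known. The study lists Shisa3 and Lgr5 (printed there as Lrg5) with the first principal component of these data. That component came from an analysis that parted the samples by age, so the calls of both genes are not independent of it. Genes named with values were the called ones, the 3 with the highest count per countable kilobase in each role, Lgr5 and Shisa3, those with a log2 fold change over 1, no overlap and a mean of at least 1 CPM, and at most 10 called genes of the pathway lists; the others are given in groups or to show a range and were chosen after their values were seen. Promoter sequence was read from the mm9 genome. The libraries held 11930137 and 11730849 counts (mature) and 10472117 and 15650518 counts (elderly); limits from counts cover counting error only. Replicates of an age differed by more than sampling noise (chi-square per degree of freedom 16.2 mature, 34.6 elderly). Alternatives were DESeq2 1.42.0, the exact test, other filters, scalings and prior counts, the robust fit, a replicate block, protein-coding genes, the top transcript, counts per gene ID (added after seeing the data), a log2 fold change over 1, and each library left out. On simulated data with 200 changed genes among 20710 tested, the test recovered 65% of genes changed by 2 and 17% of those changed by 1 on the log2 scale, with 2.38% of calls false, and made 0 calls among 20694 genes without a change. The simulated counts took their spread from the fitted dispersion trend alone. These rates therefore do not cover genes with a wider spread of their own.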

Additional observations from a re-analysis of the deposited data

How the results depend on the processing

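Limits: with 2 libraries per age the calls rest on a spread estimated from few libraries, a fit with 1 library left out takes the spread of the other age for the lone library, and genes with few counts or few countable bases are measured with wide error. Of 494 comparisons of a single gene's value under an alternative with its reported value, 430 kept direction and side of the threshold, 47 lost the call, 5 gained it and 12 changed sign. The 7 Wnt genes were called in 9 (Fzd9) or 11 (each of the others) of 12 alternatives that used all libraries. Of the called pathway genes, Wisp2 was called in 10, Ccnd1, Tle1, Tle2 and Tnfrsf11b in 11, and Gpc3 in 12 of these. These 12 include a prior count of 2, which cannot change a call. They leave out the limit of a log2 fold change over 1, at which Sfrp1 and Wisp2 were not called. The exact test at a dispersion of 0.2 called 2 Wnt genes higher and 0 lower (7 had an unadjusted p under 0.05), 200 and 33 of all genes, and 1 and 1 of the pathway lists. DESeq2 called the same 7 Wnt genes, 154 of all genes lower and 4 pathway genes higher. Without a filter 892 genes were higher and 265 lower, with 5 pathway genes higher. The robust fit called 182 genes lower and 5 pathway genes higher, and protein-coding genes alone gave 4 pathway genes higher.

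The sample titles number the mice of each age and do not say that libraries are paired across the ages. The difference of replicate 1 and 2 correlated at 0.0421 between the ages over 14238 genes, and a pairing in part of the genes was not tested. A replicate block gave 970 genes higher and 292 lower against 487 and 96 without it, 4 pathway genes higher, and 8 Wnt genes.

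With each library left out, Wnt genes called higher ranged from 0 to 3 and lower from 0 to 3, all genes higher from 0 to 733 and lower from 0 to 140, pathway genes higher from 0 to 3 and lower from 0 to 3, and the median log2 fold change of the Wnt genes from 0.041 to 0.22. All counts were 0 without elderly replicate 2, and 733 came without mature replicate 1. Of the single genes, 9 that were not called with all libraries changed sign: Lgr4 (-0.31 without mature replicate 2 to 0.46, and -0.26 with the top transcript), Fzd5 (-0.46 without elderly replicate 2 to 0.50), Lrp5 (-0.011 without mature replicate 1 to 0.10), Sfrp4 (-1.32 without mature replicate 2 to 0.20 without mature replicate 1), Wnt2b (-0.52 to 0.17 without mature replicate 2), Rnf43 (-0.79 without elderly replicate 1 to 1.69), Tcf7 (-0.24 without elderly replicate 1 to 0.72), Fzd1 (-0.23 without elderly replicate 2 to 0.41) and Rspo2 (-0.17 without elderly replicate 2 to 0.75). The cause was not tested.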
